A study of Mus musculus with 6 samples.

Results

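Cells of E14, an established mouse embryonic stem cell line, were transfected with siRNA 2 against p/CIP or with a pool of non-specific siRNAs as the control. Each of these groups had 2 arrays, chosen by the sample titles, so the comparison rests on 4 of the 6 arrays of the series. The other 2 arrays came from E14 cells given siRNA 1 against p/CIP, and they enter here through the estimate of the spread and through the comparison of the siRNAs. All groups were grown on adherent plates and differ in the labels only by the siRNA. For siRNA dose, the interval before RNA extraction and siRNA sequences, nothing is given in the sources used here. The labels do not say that the 2 arrays of a group came from separate cultures, so every p-value measures the spread between these arrays, which may be technical.

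p/CIP is the product of Ncoa3 (also called SRC-3), a member of the p160 family of coactivators with Ncoa1 and Ncoa2. These proteins are recruited by ligand-bound nuclear receptors and by other transcription factors, and they bring in histone acetyltransferases such as CBP and p300. In embryonic stem cells Ncoa3 is known as a coactivator of the orphan nuclear receptor Esrrb. Esrrb, Klf4, Tbx3 and Nr0b1 belong to the network of the naive state, from which cells pass to a primed, epiblast-like state marked by Fgf5 and Otx2.

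The deposited values were treated as log2 signals, so a difference of 1 is a 2-fold change. The level of a probe set is not compared with that of another. The medians of the 4 arrays lay between 7.77 and 7.82, and the median standard deviation between the paired arrays of a group was 0.0667 in the control and 0.0674 with siRNA 2. The number of arrays limits the precision: an exact permutation test of 2 arrays against 2 cannot go below p = 0.333. Tests were therefore made with limma over 19938 genes, with a threshold of 0.05 on the Benjamini-Hochberg adjusted p.

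Ncoa3 itself, the transcript that siRNA 2 targets, was lower on both siRNA 2 arrays. It read 12.33 and 12.28 on the control arrays against 10.71 and 10.92 on the siRNA 2 arrays. The difference was -1.49 ± 0.111 (standard error from limma, 95% confidence interval -1.75 to -1.23), or 2.81-fold lower, and was the largest difference below control of all genes. Its adjusted p was 0.0742 in the fit to all 6 arrays, which missed the threshold. The adjusted p was 0.0193 in a fit to the 4 arrays compared and 0.048 with the replicate number as a block, a fit that takes out a difference shared by the arrays numbered 1 against those numbered 2.

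In the fit without the block no gene passed in either direction (0% of the genes tested), although 597 genes lay lower (2.99%) and 449 higher (2.25%) at an unadjusted p under 0.05. These are 1046 genes in all, where 996.9 would be expected by chance. With the replicate block, 22 genes fell (0.11%) and 4 genes rose (0.0201%). The 26 genes had siRNA 2 and control arrays that did not overlap, which was also true of 3944 genes below control (19.8% of all genes) and 3184 above it (16%). Of the 26 genes, 25 had an unadjusted p under 0.05 without the block. In what follows, "fell" and "rose" are used of genes that passed with the replicate block, and their adjusted p without it is given beside them. The block rests on same-numbered arrays deviating together, not on a statement in the labels, and with the array codes of the labels taken as the block in place of the numbers no gene passed. The codes differ from the numbers in the order of the siRNA 1 arrays. With any 1 of the 4 arrays compared left out, controls included, the 26 genes kept their sign with and without the block. Without the block this was fixed in advance, because their groups did not overlap. A group then held 1 array, so only the direction is given here.

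**Figure D1:**
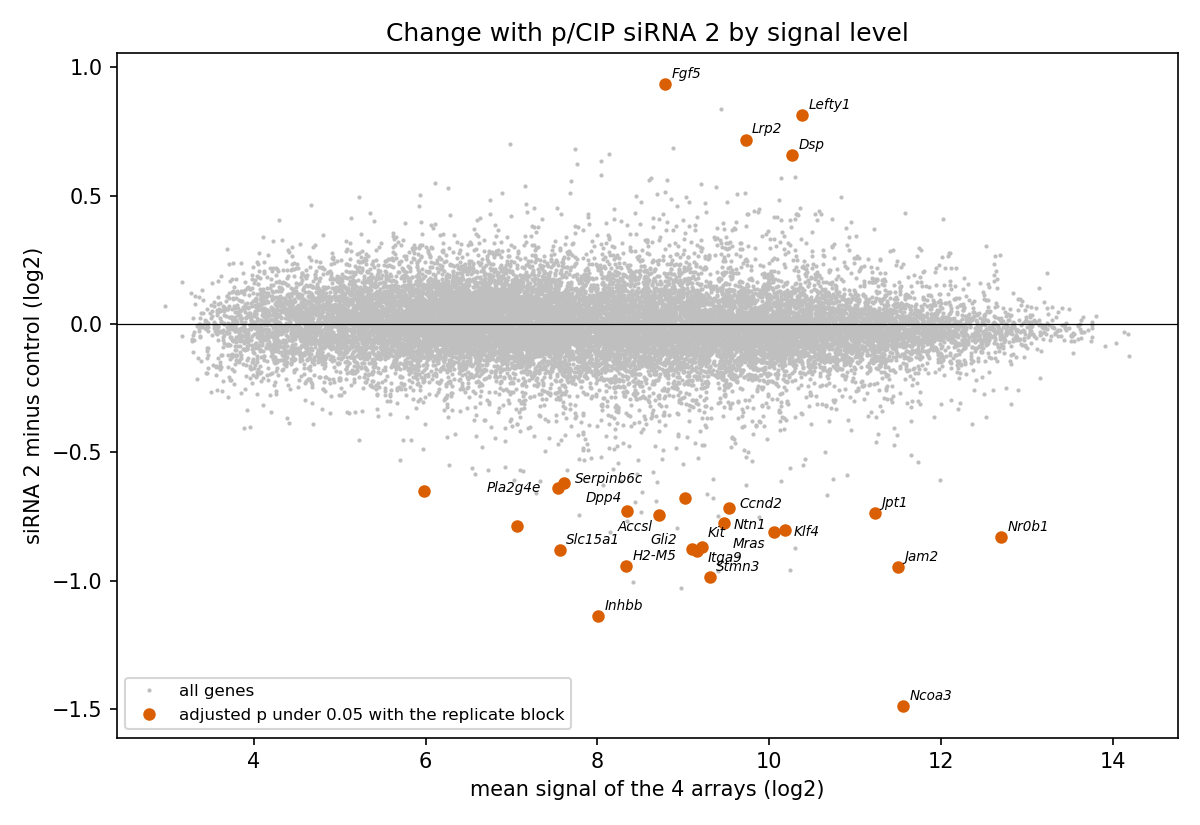
Difference between siRNA 2 and control (log2) against the mean signal of the 4 arrays (log2) for every gene, with the genes that passed with the replicate block in orange, named except for 3 genes without a descriptive symbol. Ncoa3 at -1.49 and Inhbb at -1.14 lie lowest, Fgf5 at 0.93 lies highest, and 22 of the 26 orange points are below 0.

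The upstream sequences of 3 genes called with the block are shown. Nr0b1, an orphan nuclear receptor of the naive network, was chosen as 1 of the 2 called genes that hold the motif searched for, Inhbb fell most after Ncoa3, and Fgf5 is the primed marker that rose most. Each sequence is the 250 bases before the transcription start, from RefSeq on GRCm38.p6, read 5′ to 3′ on the gene's strand, at chrX:86191525-86191774 (plus), chr1:119422249-119422498 (minus) and chr5:98253934-98254183 (plus). Capitals mark AGGTCA, the short motif at the centre of nuclear receptor sites, which begins at position -126 of the Nr0b1 promoter.
Nr0b1: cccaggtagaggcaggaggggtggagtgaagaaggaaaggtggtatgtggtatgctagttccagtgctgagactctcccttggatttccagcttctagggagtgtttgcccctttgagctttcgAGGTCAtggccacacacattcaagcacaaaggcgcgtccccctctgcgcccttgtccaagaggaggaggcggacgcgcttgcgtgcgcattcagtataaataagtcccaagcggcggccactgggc
Inhbb: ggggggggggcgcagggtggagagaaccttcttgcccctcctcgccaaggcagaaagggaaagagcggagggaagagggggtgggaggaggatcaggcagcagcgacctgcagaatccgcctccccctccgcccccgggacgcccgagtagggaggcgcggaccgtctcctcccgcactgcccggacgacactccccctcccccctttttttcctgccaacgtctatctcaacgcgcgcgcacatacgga
Fgf5: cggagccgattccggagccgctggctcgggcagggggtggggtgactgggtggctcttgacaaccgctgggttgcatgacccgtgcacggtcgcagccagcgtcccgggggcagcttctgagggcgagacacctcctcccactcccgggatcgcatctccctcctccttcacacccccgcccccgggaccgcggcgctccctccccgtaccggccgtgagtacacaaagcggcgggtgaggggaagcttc
AGGTCA was searched on both strands in the same window of 15614 measured genes and was present in 12.2% of them. Of the 21 genes called with the block that have such a window, H2-M5 and Nr0b1 held it. The longer TCAAGGTCA, which contains AGGTCA and is the site that Esrrb recognises, was in 0.288% of windows, and the octamer ATGCAAAT was in 1.61%. Neither was in any of the 21 windows, which says only that these letters are not within 250 bases upstream. The 3 promoters had a GC content of 57.2% (Nr0b1), 68% (Inhbb) and 70.8% (Fgf5), beside a median of 58.8% in the 21 windows and 56.4% in all.

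The cells carried the transcripts that define embryonic stem cells on every array. Pou5f1, the POU factor of pluripotency, read 12.91 and 12.80 in the control and 12.82 and 12.73 with siRNA 2. Sox2, its partner, read 12.54 and 12.35 in the control and 12.38 and 12.29 with siRNA 2. The groups overlapped for both genes, and the differences were -0.08 (95% confidence interval -0.30 to 0.13) and -0.10 (-0.35 to 0.14). Nanog read 13.05 and 12.88 in the control and 12.71 and 12.61 with siRNA 2, lower on both arrays by 0.31 ± 0.0987, which did not pass (adjusted p = 0.739, and 0.187 with the block). Sall4 differed by -0.06.

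Genes of the naive state lay lower as a group. Of 36 listed genes of core and naive pluripotency, 35 were measured, of which 29 lay below control and 6 above. Both siRNA 2 arrays were below both control arrays for 23 of them (65.7%, beside 19.8% of all genes). Both were above for 4 (11.4%, beside 16% of all genes). The median difference was -0.18, beside -0.01 over all genes, of which 52.8% lay below control and 47.2% above. Nr0b1, Jam2 and Klf4 fell. The list was written with earlier results of these data known, so its direction is a description.

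Nr0b1 (Dax1), an orphan nuclear receptor without a classic DNA-binding domain, read 13.18 and 13.05 in the control and 12.30 and 12.26 with siRNA 2. It fell by 0.83 ± 0.0839 on the log2 scale (adjusted p = 0.048 with the block and 0.0906 without it). Jam2, a junctional adhesion molecule with high expression in these cells, read 12.13 and 11.82 in the control and 11.11 and 10.95 with siRNA 2. Its change was -0.95 ± 0.127 (adjusted p = 0.048 with the block, 0.177 without). Klf4, a Kruppel-like factor used to reprogram somatic cells, read 10.70 and 10.47 in the control and 9.91 and 9.65 with siRNA 2, and changed by -0.80 ± 0.129 (adjusted p = 0.048 with the block, 0.272 without). In each of these genes the groups stood apart by more than the gap between the arrays of a group.

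Other naive genes lay lower without passing either fit. Tbx3, a T-box repressor that helps to hold the naive state, read 10.84 and 10.61 in the control and 9.75 and 9.78 with siRNA 2, a difference of -0.96 ± 0.107 (adjusted p = 0.0915, and 0.0523 with the block). In the fit to the 4 arrays compared its adjusted p was 0.0492. Esrrb read 11.98 and 11.82 in the control and 11.48 and 11.31 with siRNA 2, a difference of -0.51 ± 0.104 (adjusted p = 0.385, and 0.0727 with the block). Tet2, a 5-methylcytosine dioxygenase of these cells, read 11.18 and 10.83 in the control and 10.45 and 10.23 with siRNA 2, a difference of -0.67 ± 0.184. Smaller differences in the same direction were seen in Nr5a2 (-0.35), an orphan nuclear receptor, and Klf2 (-0.33), another Kruppel-like factor. Both siRNA 2 arrays were below both controls for these 5 genes.

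The families of these factors had medians near that of all genes, with members on both sides of control. Of 14 Kruppel-like factors, 9 lay below control and 5 above, with a median of -0.05, and Klf4 alone of them passed. In 6 (42.9%, beside 19.8% of all genes) both siRNA 2 arrays were below both controls. In 3 (21.4%, beside 16% of all genes) both were above. Klf12 was lower by 0.43 and Klf3 by 0.24 without passing. Of 9 orphan nuclear receptors of stem cells, 5 lay below control and 4 above, with a median of -0.03, and Nr0b1 alone passed. In 3 of these receptors (33.3%) both siRNA 2 arrays were below both controls, and in 2 (22.2%) both were above. The other p160 coactivators differed little: Ncoa1 read 8.97 and 8.98 in the control and 8.89 and 8.93 with siRNA 2, and its difference was -0.07 (95% confidence interval -0.25 to 0.12). Ncoa2 read 8.94 and 8.97 in the control and 8.99 and 9.08 with siRNA 2, a difference of 0.08 (-0.11 to 0.26). None of 15 measured p160 coactivators and partners passed, with 8 below control and 7 above and a median of -0.01; Med12, a Mediator subunit, was the highest of them at 0.32.

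**Figure D2:**
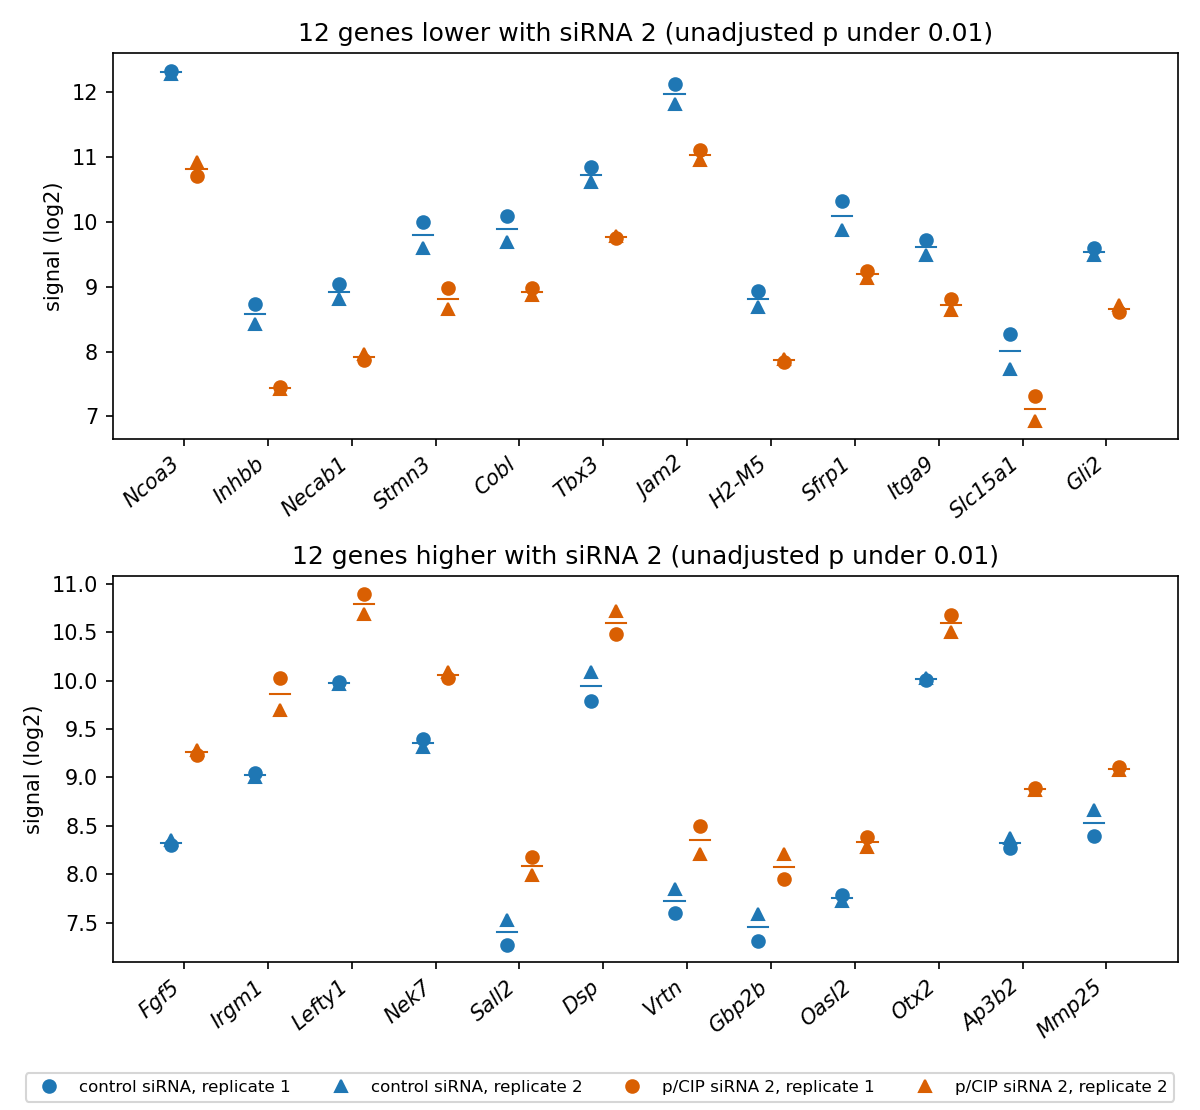
Signal (log2) on each control (blue) and siRNA 2 (orange) array, circles for replicate 1 and triangles for replicate 2 with a bar at the group mean, for the 12 genes lowest (top) and highest (bottom) against control at an unadjusted p under 0.01 without overlap. By that choice the groups do not overlap in any of the 24 genes. Predicted, olfactory and vomeronasal genes were passed over, and the brighter group mean had to exceed the median level of all genes. Cobl, Stmn3, Sfrp1 and Slc15a1 show a wide gap between their control arrays with the control array numbered 1 higher.

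Most markers of the primed epiblast lay on the other side of control. Of 22 measured genes, 15 lay above control and 7 below, beside 47.2% and 52.8% of all genes, and the median was 0.15. Both siRNA 2 arrays were above both controls in 12 (54.5%, beside 16% of all genes). They were below both controls in 6 (27.3%, beside 19.8% of all genes). Fgf5, the fibroblast growth factor that marks the epiblast, read 8.30 and 8.35 in the control and 9.24 and 9.28 with siRNA 2. It rose by 0.93 ± 0.0835, or 1.91-fold, with an adjusted p of 0.048 with the block and 0.0906 without it. No other gene of the list passed. Sall2, a zinc finger factor, differed by 0.68 ± 0.113 (adjusted p = 0.288). Otx2, a homeobox factor of the primed state, read 10.00 and 10.03 in the control and 10.68 and 10.50 with siRNA 2, a difference of 0.57 ± 0.102 (adjusted p = 0.332). Lef1, a nuclear partner of beta-catenin, differed by 0.42. Epha4, an ephrin receptor on the same list, went the other way with a difference of -0.47.

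Activin and Nodal, ligands of the TGF-beta superfamily, signal through Smad2 and Smad3 in these cells, and the Lefty proteins are secreted antagonists of Nodal. Genes of this pathway held the second lowest and some of the highest differences. Inhbb encodes the beta-B subunit of activin. It read 8.73 and 8.42 in the control and 7.45 and 7.43 with siRNA 2, and fell by 1.14 ± 0.112 on the log2 scale, or 2.2-fold (adjusted p = 0.048 with the block, 0.0906 without). Lefty1 read 9.99 and 9.96 in the control and 10.90 and 10.68 with siRNA 2, and rose by 0.81 ± 0.115 (adjusted p = 0.0484 with the block, 0.183 without). Lefty2 read 8.60 and 8.48 in the control and 9.45 and 9.00 with siRNA 2, a difference of 0.68 ± 0.213 that did not pass (adjusted p = 0.725). Inhba, the beta-A subunit of activin, differed by 0.47 ± 0.154 without passing. Over the 18 measured genes 9 lay below control and 9 above, and the median was 0.02, so the pathway's genes did not share a direction.

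In the hedgehog pathway, Gli2, the main activating transcription factor, read 9.59 and 9.48 in the control and 8.61 and 8.71 with siRNA 2. It fell by 0.87 ± 0.0899 (adjusted p = 0.048 with the block, 0.0906 without). Hhip, a membrane inhibitor of hedgehog ligands, differed by -0.56 ± 0.122 and Gli1 by -0.27 ± 0.0768, while Gli3, the main repressor, differed by 0.40 ± 0.136. None of these passed. Of 13 measured genes, 9 lay below control and 4 above, with a median of -0.08. In 5 (38.5%, beside 19.8% of all genes) both siRNA 2 arrays were below both controls. In 2 (15.4%, beside 16% of all genes) both were above.

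Among WNT genes, Sfrp1, a secreted WNT antagonist, read 10.31 and 9.87 in the control and 9.24 and 9.14 with siRNA 2, a difference of -0.90 ± 0.155 (adjusted p = 0.304, and 0.0523 with the block). Porcn, the acyltransferase that WNT proteins need to be secreted, read 10.31 and 10.20 in the control and 9.54 and 9.47 with siRNA 2, a difference of -0.75 ± 0.0882 (adjusted p = 0.103, and 0.0523 with the block). Neither passed. The list of 25 measured genes was split, with 13 below control, 12 above and a median of -0.01.

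FGF and ERK signalling held a gene at each end. Mras, a small GTPase related to Ras, read 10.61 and 10.31 in the control and 9.73 and 9.58 with siRNA 2, and fell by 0.81 ± 0.119 (adjusted p = 0.048 with the block, 0.206 without). A second probe set for Mras differed by -0.99. Spry4, a feedback inhibitor of ERK signalling, differed by -0.43, and Dusp4, a MAP kinase phosphatase, by 0.33; neither passed. Of 18 measured genes 11 lay below control and 7 above, with a median of -0.02. In 9 (50%, beside 19.8% of all genes) both siRNA 2 arrays were below both controls. In 5 (27.8%, beside 16% of all genes) both were above.

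The genes of the other 2 pathways that support naive cells gave no call. Lifr, the receptor for leukaemia inhibitory factor, differed by -0.49 ± 0.0881 and Socs3, a STAT3 target that limits the pathway, by -0.32 ± 0.0799. A dimmer second probe set for Socs3 differed by -0.09 ± 0.151. Of 11 measured genes of LIF and STAT3 signalling 8 lay below control and 3 above, with a median of -0.03. Bmp4 differed by -0.39 ± 0.0814 and Smad6, an inhibitory Smad, by -0.41 ± 0.0975, and 9 of 14 genes of the BMP list lay below control, with a median of -0.03. In 4 of the BMP genes (28.6%, beside 19.8% of all genes) both siRNA 2 arrays were below both controls. In 2 (14.3%, beside 16% of all genes) both were above.

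Kit, the receptor for stem cell factor, read 9.73 and 9.57 in the control and 8.83 and 8.73 with siRNA 2, and fell by 0.87 ± 0.0918 (adjusted p = 0.048 with the block, 0.0906 without). Ntn1, the secreted guidance cue netrin 1, read 9.85 and 9.86 in the control and 9.13 and 9.03 with siRNA 2, and fell by 0.78 ± 0.0852 (adjusted p = 0.048 with the block, 0.0906 without). Itga9, the integrin alpha 9 chain, read 9.72 and 9.49 in the control and 8.81 and 8.64 with siRNA 2, and fell by 0.89 ± 0.133 (0.048 with the block, 0.219 without). Dpp4, a cell-surface peptidase, read 8.76 and 8.66 in the control and 7.98 on both siRNA 2 arrays, a fall of 0.73 on the log2 scale (0.048 with the block, 0.0906 without).

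Slc15a1, a peptide transporter, read 8.27 and 7.74 in the control and 7.32 and 6.92 with siRNA 2, so the gap between its control arrays was large beside its change of -0.88 ± 0.237 (adjusted p = 0.048 with the block, 0.601 without). Stmn3, a stathmin that binds tubulin, read 10.00 and 9.60 in the control and 8.98 and 8.65 with siRNA 2, a change of -0.99 ± 0.163 (0.048 with the block, 0.288 without). A dimmer second probe set for Stmn3 differed by 0.03, so the fall of Stmn3 rests on 1 probe set. H2-M5, a class I histocompatibility gene, read 8.93 and 8.68 in the control and 7.84 and 7.89 with siRNA 2, and changed by -0.94 ± 0.112 (0.0484 with the block, 0.103 without). Necab1, a calcium-binding protein, and Cobl, an actin nucleator, lay lower by 1.00 ± 0.109 and 0.96 ± 0.134 but missed the threshold with the block at an adjusted p of 0.0523 each; Necab1 passed in the fit to the 4 arrays compared (0.0492).

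The remaining falls with the block were those of Accsl (-0.74), Pla2g4e, a phospholipase (-0.64), Serpinb6c, a serpin (-0.62), the olfactory receptor gene Olfr153 (-0.65) and the genes 9330159F19Rik (-0.79) and 1810010H24Rik (-0.68). Jpt1 also fell and is described with the comparison of the siRNAs.

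The 10 genes that passed in the fit to the 4 arrays compared, where the adjusted p of the others was 0.0492, were Ncoa3, Inhbb, Necab1, Tbx3, Gli2, Cyp2b23, Nr0b1, 9330159F19Rik and Ntn1 below control and Fgf5 above it. Of them 7 also passed with the block. Cyp2b23, a cytochrome P450 named here after its values were seen, read 10.79 and 10.68 in the control and 9.89 and 9.84 with siRNA 2.

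Cell cycle genes held a single call. Ccnd2, cyclin D2, read 9.77 and 10.02 in the control and 9.06 and 9.29 with siRNA 2, and fell by 0.72 ± 0.148 (adjusted p = 0.048 with the block, 0.385 without). E2f3 and Ccnd3, which act at the same step into DNA replication, differed by -0.41 and -0.30 without passing. A dimmer second probe set for E2f3 differed by -0.22 ± 0.132. Of 33 measured genes 26 lay below control and 7 above, but the median was -0.03. Both siRNA 2 arrays lay below both controls in 11 (33.3%, beside 19.8% of all genes). They lay above both in 2 (6.06%, beside 16% of all genes). Among 27 chromatin regulators 17 lay below control, with a median of -0.02, and none passed; the lowest were Wdr5 and Setdb1 at -0.26 each. Of 9 measured DNA methylation enzymes, Tet2 lay below control and the other 8 above, with a median of 0.04.

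Dsp and Lrp2 were the remaining rises. Dsp, desmoplakin of desmosomes, read 9.79 and 10.09 in the control and 10.48 and 10.72 with siRNA 2, and rose by 0.66 ± 0.138 (adjusted p = 0.0484 with the block, 0.385 without). Lrp2, the endocytic receptor megalin, read 9.01 and 9.73 in the control and 9.81 and 10.36 with siRNA 2, a change of 0.72 ± 0.308 (0.0484 with the block, 0.958 without). The array numbered 2 was the higher in both groups, and for Lrp2 the gap between the control arrays was about as large as the change. Lrp2 is also a marker of extraembryonic endoderm. The mean level of the 22 measured markers of that cell type was 8.40 and 8.70 in the control and 8.50 and 8.81 with siRNA 2, so these markers too were higher on the arrays numbered 2 in both groups. Of them 17 lay above control and 5 below, with a median of 0.06, and Lrp2 was the single one with groups that did not overlap. Over all genes, 16% had both siRNA 2 arrays above both controls and 19.8% had both below. Gata6, a defining factor of extraembryonic endoderm named after its values were seen, read 9.34 and 9.89 in the control and 9.39 and 9.80 with siRNA 2. It is 1 gene and does not stand for the list, most of which lay above control. With siRNA 1, 20 of the 22 markers lay above control and 2 below, with a median of 0.21. The part of extraembryonic endoderm cells in the change of Lrp2 was not tested.

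Markers of other cell types the cultures could hold showed no call. Medians were 0.01 for 16 trophoblast genes, -0.01 for 14 neural genes, 0.00 for 16 genes of the primitive streak and mesoderm, 0.05 for 12 markers of fibroblast feeders and 0.03 for 17 germline genes. The mean level of the fibroblast markers was 6.65 and 6.70 in the control and 6.68 and 6.79 with siRNA 2. In bulk RNA, fewer cells of a type and less RNA per cell cannot be told apart, and this holds for the pluripotency markers as well.

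**Figure D3:**
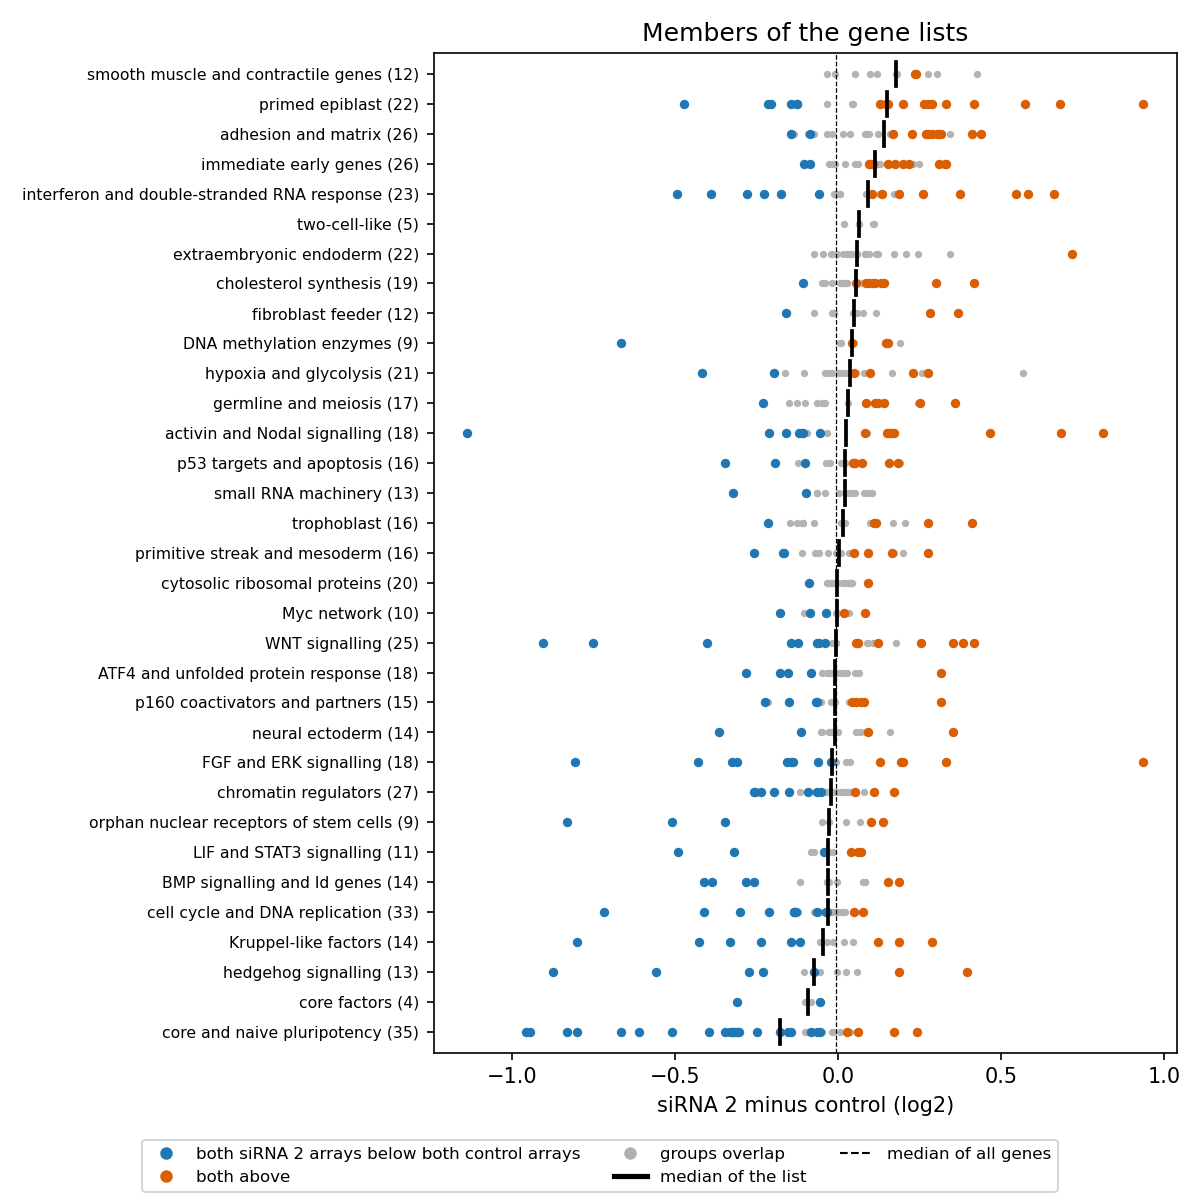
Difference between siRNA 2 and control (log2) of each measured gene of the 33 gene lists, with the number measured in brackets; blue and orange points have both siRNA 2 arrays below or above both controls, grey points overlap, the thick bar is the list's median and the dashed line the median of all genes. The naive pluripotency genes have the lowest median (-0.18), and the contractile genes (0.18) and the primed epiblast genes (0.15) the highest.

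No gene on the list of adhesion and matrix passed; Itga9, Jam2 and Dsp, described above, are not on it. Of its 26 measured genes 19 lay above control and 7 below, and the median was 0.14. In 10 of them (38.5%, beside 16% of all genes) both siRNA 2 arrays were above both controls. In 2 (7.69%, beside 19.8% of all genes) both were below. Mmp2, a matrix metalloproteinase, differed by 0.44 ± 0.0976 and Sdc4, a cell-surface proteoglycan, by 0.41 ± 0.0809. The immediate early genes had the same counts (19 above, 7 below, 10 and 2 without overlap) with a median of 0.11; Zfp36, which destabilises messenger RNA, and Dusp4 were both at 0.33. Of 12 smooth muscle and contractile genes 10 lay above control, and the median was 0.18. Yet in 2 alone (16.7%, beside 16% of all genes) were both siRNA 2 arrays above both controls. Across the alternative settings that median ranged from -0.06 to 0.37.

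Because siRNAs are double-stranded RNA, interferon genes were also examined. The control cells received siRNAs too, so a response shared by all groups would not appear in this comparison. Of 23 measured genes 15 lay above control and 8 below, and none passed. Oasl2, an oligoadenylate synthetase-like protein, read 7.79 and 7.72 in the control and 8.39 and 8.28 with siRNA 2, a difference of 0.58 ± 0.0858 (adjusted p = 0.206, and 0.0523 with the block). Irf1 differed by 0.54 ± 0.0965, and Cxcl10, a chemokine named after its values were seen, by 0.66 ± 0.235. A dimmer second probe set for Irf1 differed by 0.29 ± 0.107. Irgm1, an interferon-inducible GTPase outside the list, read 9.04 and 9.00 in the control and 10.03 and 9.70 with siRNA 2, the second largest difference above control (0.84 ± 0.193, adjusted p = 0.456). Other genes of the same response were lower, with Oas1a at -0.50 ± 0.122. The median of the list was 0.09 with siRNA 2 and -0.04 with siRNA 1. The standard deviation of the list's median signal between the arrays of a group was 0.145. With siRNA 1, set against the same control arrays, Irgm1 was at 0.57, Irf1 at 0.42, Oasl2 at 0.21 and Oas1a at -0.52. Each lay on the same side as with siRNA 2, but the shared controls favour this. Over the list, 12 genes lay below control with siRNA 1 and 11 above.

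The medians of the lists of basic functions were close to that of all genes. The median was -0.00 for 20 ribosomal protein genes. It was -0.01 for 10 genes of the Myc network and for 18 genes of the ATF4 and unfolded protein responses, 0.02 for 16 p53 target and apoptosis genes and for 13 genes of the small RNA machinery, 0.04 for 21 hypoxia and glycolysis genes and 0.06 for 5 genes of the 2-cell-like state. None of these genes passed. Cholesterol synthesis had a median of 0.06 over 19 genes, of which 15 lay above control. In 9 of them (47.4%, beside 16% of all genes) both siRNA 2 arrays were above both controls, and in 1 (5.26%, beside 19.8%) below. With siRNA 1 the median was -0.13, with 15 below control and 4 above. In the direct limma test 10 were higher with siRNA 2 than with siRNA 1 at an unadjusted p under 0.05, and 0 lower. Over all genes 3.36% were higher and 3.54% lower. Cyp51, a sterol demethylase, read 8.97 and 8.94 in the control and 9.45 and 9.29 with siRNA 2, a difference of 0.42 ± 0.0878 that did not pass (adjusted p = 0.385).

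siRNA 1 and siRNA 2 target the same transcript, and no difference in Ncoa3 between them was detectable. It read 10.71 and 10.93 with siRNA 1, and siRNA 2 minus siRNA 1 was -0.00 (95% confidence interval -0.27 to 0.26). Both siRNAs were compared with the same 2 control arrays, so the differences from control share those values and are given side by side. Inhbb differed from control by -1.14 with siRNA 2 and -1.27 with siRNA 1, Nr0b1 by -0.83 and -0.91, Klf4 by -0.80 and -0.75, Kit by -0.87 and -0.83 and Gli2 by -0.87 and -0.75. Dsp differed by 0.66 and 0.84.

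The direct comparison of siRNA 2 with siRNA 1, which needs no control array, called no gene without the block (0% of the genes tested), with a smallest adjusted p of 0.0851. At an unadjusted p under 0.05, 706 genes were lower with siRNA 2 (3.54%) and 670 higher (3.36%). With the block, 1 gene was lower with siRNA 2 (0.00502%) and 14 were higher (0.0702%).

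Jpt1 was the gene that was lower with siRNA 2. It read 11.65 and 11.56 in the control, 11.65 and 11.57 with siRNA 1 and 10.95 and 10.78 with siRNA 2. siRNA 2 minus siRNA 1 was -0.74 (95% confidence interval -0.96 to -0.53), with an adjusted p of 0.0479 with the block and 0.208 without. Against control Jpt1 fell by 0.74 ± 0.0924 with siRNA 2 (0.048 with the block, 0.132 without) and was at 0.01 with siRNA 1.

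The 14 genes higher with siRNA 2 than with siRNA 1 were those that lay low with siRNA 1. Their differences from control ranged from -1.05 (Ppp6c) to -0.57 (Myl9) with siRNA 1 and from -0.14 (Ppp6c) to 0.42 (Cnn1) with siRNA 2. Myd88, the adaptor of Toll-like receptors, read 9.73 and 9.77 in the control and 9.87 and 9.90 with siRNA 2, while siRNA 1 gave 8.86 and 8.91. siRNA 2 minus siRNA 1 was 1.00 (0.82 to 1.19), with an adjusted p of 0.0395 with the block and 0.0851 without. Krt19, a keratin, read 9.26 and 9.50 in the control, 8.27 and 8.57 with siRNA 1 and 9.48 and 9.92 with siRNA 2, a difference of 1.28 (0.87 to 1.70) between the siRNAs. Samm50, a subunit of the mitochondrial sorting and assembly machinery, was at -0.01 with siRNA 2 and -0.79 with siRNA 1. Acta1, Cnn1 and Myl9, genes of the contractile apparatus, were among the 14, with differences between the siRNAs of 1.00 (0.37 to 1.63), 1.07 (0.48 to 1.66) and 0.75 (0.17 to 1.34). For these 3 genes the array numbered 2 was the higher in all 3 groups. The remaining genes of the 14 were Rab27a, Msrb1, Crip2, Vat1, Pdk1, Efemp1 and Thbs1.

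Fgf5 and Lefty1, which rose with siRNA 2, were nearer to control with siRNA 1. Fgf5 differed from control by 0.93 with siRNA 2 and 0.40 with siRNA 1, and the difference between the siRNAs was 0.54 (0.34 to 0.74). Lefty1 differed by 0.81 and 0.22, and the difference was 0.60 (0.32 to 0.87). Neither difference passed (adjusted p = 0.31 and 0.411, or 0.113 and 0.103 with the block), so a larger rise with siRNA 2 was not shown by this test. Otx2 was at 0.57 with siRNA 2 and 0.09 with siRNA 1, and Lefty2 at 0.68 and -0.10. For Nr0b1, Klf4 and Inhbb the siRNAs were not told apart: siRNA 2 minus siRNA 1 was 0.08 (-0.12 to 0.28) for Nr0b1, -0.05 (-0.35 to 0.26) for Klf4 and 0.13 (-0.14 to 0.40) for Inhbb, and differences as large as these intervals allow could not have been seen with 2 arrays in each group.

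**Figure D4:**
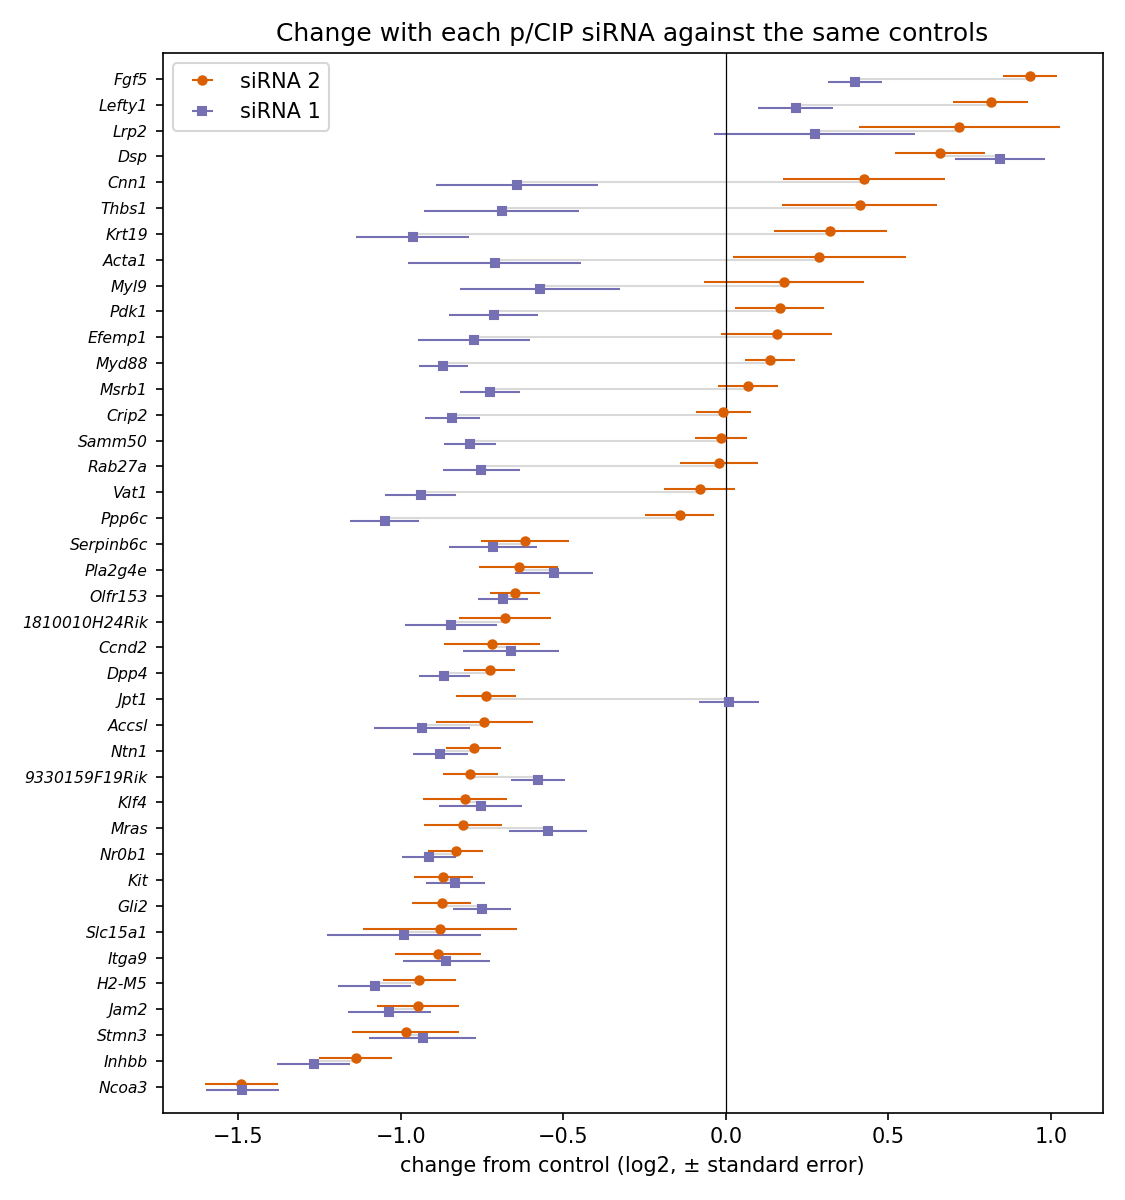
Difference from the shared control arrays (log2, ± standard error of the fit without the block) with siRNA 2 (orange circles) and siRNA 1 (violet squares) for the genes called with the replicate block for siRNA 2 against control or against siRNA 1. Most genes below control lie together for the siRNAs, Jpt1 lies at -0.74 with siRNA 2 and at 0.01 with siRNA 1, and Myd88 lies at 0.14 with siRNA 2 and at -0.87 with siRNA 1.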

How the data were processed

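Total RNA was hybridised to 6 single-colour arrays, 2 per group. The deposited values, made by the authors with Partek per the submitters' processing notes, hold normalized log2 signals for 35556 probe sets; the scale was read from their range of 2.69 to 14.6, and for background correction, normalization and genome build nothing is given in the sources used here. No detection calls were used. Probe sets with 1 gene symbol in the platform annotation (21789) were reduced to the brightest per gene, leaving 19938 genes; 1621 had several symbols and 12146 none.

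limma 3.58.1 in R 4.3.3 (lmFit and eBayes) fitted 3 groups over all 6 arrays, with 3 residual and 3.84 prior degrees of freedom, and Benjamini-Hochberg adjustment at 0.05. Deviations of same-numbered arrays from their group means correlated at 0.407 (control and siRNA 2), 0.464 (control and siRNA 1) and 0.461 (siRNA 1 and siRNA 2), and the numbers were treated as pairs on that basis alone. The fit was also run on simulated data with known changes and independent noise on each array. Those data held no difference shared by same-numbered arrays, so they could not test the block.

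Genes were named by rule: Ncoa3, genes called with the block, the 12 lowest and 12 highest without overlap at an unadjusted p under 0.01, and the 4 (or fewer) genes with the lowest p in each of 33 lists (622 entries, 573 measured, some in several lists). The 12 lowest and 12 highest needed a brighter group mean above the median gene level, and predicted, olfactory and vomeronasal genes were passed over. A fixed set was also named: Pou5f1, Sox2, Nanog, Sall4, Klf4, Esrrb, Nr0b1, Tbx3, Inhbb, Fgf5, Ncoa1 and Ncoa2. Cyp2b23, Cxcl10, Gata6 and the genes differing between the siRNAs were chosen after their values were seen. The comparison and the lists were chosen with earlier results of these data known. Alternatives covered the arrays fitted, normalization, variance model, level filter, probe set rule and left-out arrays.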

Additional observations from a re-analysis of the deposited data

Results flagged for a closer look

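For 21 genes the siRNAs either differed in the direct limma test of siRNA 2 against siRNA 1 with the replicate block or lay on opposite sides of the shared controls. None passed the direct test without the block.

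With the block, 15 of them passed. Jpt1 had a difference (siRNA 2 minus siRNA 1, log2) of -0.745. The difference was 1.285 for Krt19, 1.1 for Thbs1, 1.068 for Cnn1, 1.004 for Myd88, 0.9988 for Acta1, 0.9305 for Efemp1 and 0.9067 for Ppp6c. It was 0.8803 for Pdk1, 0.8588 for Vat1, 0.8336 for Crip2, 0.7935 for Msrb1, 0.7723 for Samm50, 0.751 for Myl9 and 0.7315 for Rab27a. Myd88 was the 1 gene of these 15 with both siRNA 2 arrays above, and both siRNA 1 arrays below, both controls.

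The other 6 had arrays on opposite sides of both controls without passing either fit, so no difference was shown for them; 502 of all genes (2.52%) had such an order. The sterol synthesis enzymes Cyp51 (0.5518, adjusted p = 0.325), Msmo1 (0.3819, adjusted p = 0.424) and Dhcr7 (0.214, adjusted p = 0.718) were above control with siRNA 2 and below it with siRNA 1. The same was seen in Dcn, the matrix proteoglycan decorin (0.4141, adjusted p = 0.378), Trp53inp1, a p53 target (0.3858, adjusted p = 0.481), and Dnmt3a, a DNA methyltransferase (0.2866, adjusted p = 0.696).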

How the results depend on the processing

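The change of Ncoa3 kept its direction in every alternative: -1.49 with the replicate block, in the fit to the 4 arrays compared, with a trend and robust variance model and with genes above the median level only, and -1.46 with quantile or cyclic loess normalization, each now past the threshold. The mean of probe sets and the block by array code also gave -1.49, but missed the threshold (limma adjusted p = 0.0686 and 0.367). Leaving out single arrays gave -1.59 to -1.39, and -1.62 to -1.36 with the block.

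Counts below and above control, 0 and 0 without the block, were 22 and 4 with it, 9 and 1 on the 4 arrays compared, 1 and 1 with either normalization, 15 and 2 with the trend and robust model and 10 and 1 above the median level. The mean of a gene's probe sets gave 0 and 0. Without any one control or siRNA 2 array both counts were 0 with and without the block; without either siRNA 1 array they were 9 and 1, or 80 and 28 with the block, as on the 4 arrays with the block. Leaving out arrays thus gave 0 to 9 below and 0 to 1 above, and 0 to 80 and 0 to 28 with the block. For siRNA 2 against siRNA 1, lower and higher counts were 1 and 14 with the block, 1 and 22 with the trend and robust model and 0 and 4 above the median level; without siRNA 1 replicate 1 they were 1 and 1, a range of 0 to 1 each over left-out arrays. The block by array code and other fits with the block were added after the data were seen.

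Of 142 other named genes 136 kept their sign. Leaving out arrays gave -0.0597 to 0.19 for Zfp352, -0.0321 to 0.24 for Tdpoz1, -0.0899 to 0.31 for Usp17la, -0.0205 to 0.25 for Postn, -0.0332 to 0.26 for Ttr and -0.0302 to 0.35 for Nes. Medians of 12 of the 33 lists moved by more than the spread between arrays somewhere; the causes were not tested. Signal near background could not be told from none.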
